A study of Mus musculus with 11 samples.

Results

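The genes described here are 38 type I interferon-stimulated genes, meaning genes that cells switch on in response to type I interferon, together with the sensors and transcription factors of that response. They were taken by symbol from a named list; the rule itself uses no measured value, but the list was drawn up with earlier results of these data known. All 38 had a value among the 46469 gene symbols of the deposited expression tables, and 28 of them passed a filter on low values that left 14950 genes for testing. The study measured polyadenylated RNA by sequencing in mouse embryonic fibroblasts, connective tissue cells grown in culture, from BALB/c embryos of day 10.5, and asked how gene expression depends on Actb, the gene of β-actin. The genotypes compared, with no other treatment named, were Actb +/+ (WT, 4 libraries, numbered 1 to 4), Actb +/- (Het, 4 libraries, 1 to 4) and Actb -/- (KO, 3 libraries, numbered 1, 3 and 4). All were cultured in DMEM with serum and antibiotics and collected at 70% confluence. The libraries are labelled biological replicates, with no word on which of them share an embryo or a culture. P-values therefore measure the spread between these libraries, which may be technical, and a genotype cannot be told apart from a cell line that carries it.

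Type I interferons bind the receptor pair Ifnar1 and Ifnar2 and, through the kinases Jak1 and Tyk2, activate a complex that holds Stat2 and Irf9. That complex binds a short DNA element, the interferon-stimulated response element, in the promoters of target genes, many of which encode antiviral proteins. Fibroblasts also make interferon themselves after cytosolic sensors such as Ddx58 (RIG-I) and Ifih1 (MDA5) detect viral RNA, and they keep a low level of many target genes without infection.

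The core of the response element is a repeat of GAAA, and promoters of the genes whose levels are described below were searched for GAAA, any 2 bases and GAAA again, on both strands and allowing matches to overlap. The RefSeq promoter table of GRCm38.p6 matched 28 of the 38 genes. In the 250 bases before the start, 9 of these 28 (32.1%) held the motif, against 3.02% of the 9217 tested genes with a promoter and 2.98% of all 32851 promoters. The second interferon motif, TTCNNNGAA, the site of STAT dimers, which reads the same on both strands, was held by 5 of 28 (17.9%), against 7.23% of tested genes and 7.02% of all promoters. A match is a stretch of letters and not a measured binding site. The windows of 6 of the 9 genes are shown because they cover the range of responses measured here, from Cxcl10, low in KO, to Ifit1, found mainly in Het, and Stat2, which did not pass the test between KO and WT; capitals mark the matches, each window is read 5′ to 3′ on the strand of its gene, and positions count back from the RefSeq start.
Isg15, chr4:156200855-156200916, minus strand, first match at -78 and nearest at -66: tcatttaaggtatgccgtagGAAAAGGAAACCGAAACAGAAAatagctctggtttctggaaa
Cxcl10, chr5:92349073-92349122, minus strand, match at -213: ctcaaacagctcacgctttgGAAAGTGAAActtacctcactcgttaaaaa
Ifit1, chr19:34640765-34640833, plus strand, first match at -104 and nearest at -85: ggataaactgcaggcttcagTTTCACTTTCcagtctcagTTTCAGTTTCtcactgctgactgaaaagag
Stat2, chr10:128270256-128270305, plus strand, match at -222: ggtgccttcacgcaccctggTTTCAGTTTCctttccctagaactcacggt
Rsad2, chr12:26456543-26456592, minus strand, match at -120: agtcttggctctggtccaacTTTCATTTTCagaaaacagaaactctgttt
Bst2, chr8:71537567-71537622, minus strand, first match at -130 and nearest at -124: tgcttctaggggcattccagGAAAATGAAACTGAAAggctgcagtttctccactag
Isg15 and Ifit1 carry repeated matches close to the start, and Cxcl10 and Stat2 a match each that lies farther away. The other 3 genes with the motif were Ifit3, Oas1a and Trim30a.

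Levels are given in FPKM (fragments per kilobase of transcript, relative to the mapped fragments of the library), after each library was divided by a scale factor of 0.938 to 1.04. Actb, the targeted gene, was at 1076 to 1532 FPKM in WT, 821 to 876 in Het and 45.0 to 47.3 in KO, in the order of the labels. Depth relative to WT 1, read from the steps between low values, ran from 60.9% in WT 3 to 125% in WT 4, with KO 1 at 65.7%, and 13869 to 14172 genes reached 1 FPKM in a library. Of 10 fibroblast markers, 9 passed the filter, led by Vim at 798 to 1677 FPKM over the libraries. Thy1, another fibroblast marker, did not exceed 0.0991 FPKM in WT and reached 1.88 to 2.45 in KO.

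Summed over the 38 genes, the level was 341 to 363 FPKM in WT, 483 to 551 in Het and 205 to 215 in KO, so that the groups did not overlap. Ifitm3 alone made up a large share; without it the sums were 258 to 282, 317 to 359 and 126 to 129 FPKM. The order Het above WT above KO in the group means held for 25 of the 38 genes, and for 18 of the 28 tested against 17.2% of all tested genes. In bulk RNA, fewer cells that express a gene and less of its RNA per cell cannot be told apart.

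**Figure D1:**
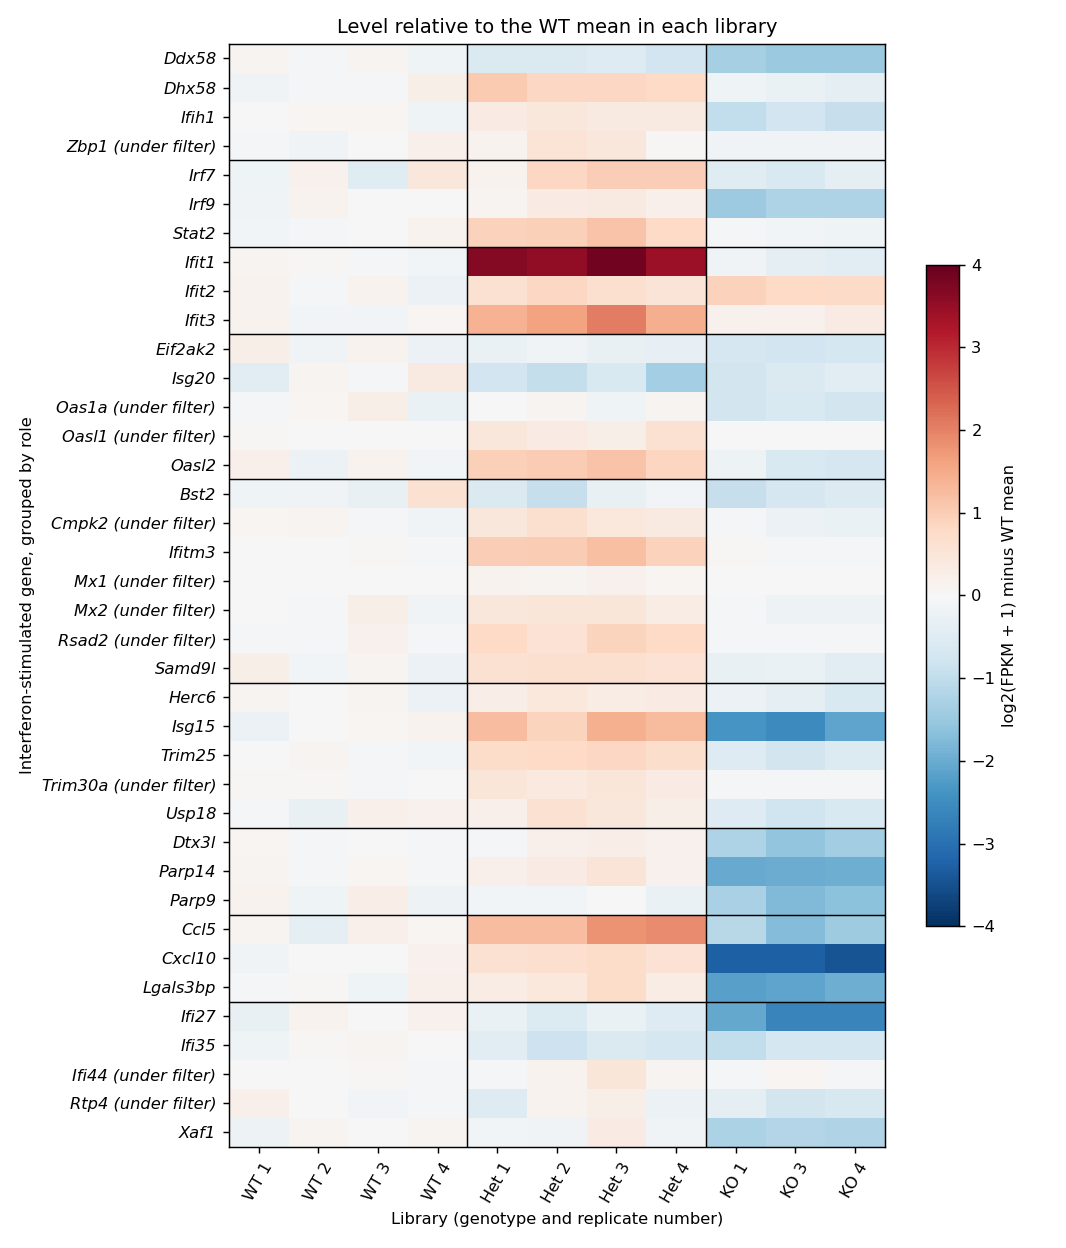
Heat map of the 38 interferon-stimulated genes (vertical axis, grouped by role) in the 11 libraries (horizontal axis); colour gives the difference of log2(FPKM + 1) from the WT mean. Most Het columns are red and most KO columns blue, with Ifit1 at the red end in Het and Cxcl10 at the blue end in KO; genes under the filter are marked.

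KO cells had less RNA from most of these genes than WT. Of the 28 tested, 21 fell, 1 rose (Ifit2) and 6 did not pass the test (limma on log2(FPKM + 1), Benjamini-Hochberg adjusted p under 0.05 over all 14950 genes), where 23.7% of all genes were called lower and 23.5% higher. Their median log2 difference was -0.71, against 0.01 over all genes, and 11 fell by at least 2-fold on the log2(FPKM + 1) scale, as did 2.70% of all genes. On that scale the largest fall was that of Cxcl10. With a pseudocount of 0.1 in place of 1, the median was -1.18. Without scaling, 23 of the 28 were lower, and the share of higher calls among all called genes went from 49.8% to 37.1%.

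Het cells had more RNA from most of these genes than WT. In this comparison 19 rose, 3 fell (Ddx58, Ifi35 and Isg20) and 6 did not pass, where 22.2% of all genes were called higher and 21.6% lower. The median log2 difference was 0.41, against 0.02 over all genes, and 5 rose by at least 2-fold on the log2(FPKM + 1) scale (Ifit1, Ifit3, Ccl5, Isg15 and Ifitm3), as did 3.10% of all genes. The median was 0.24 with a pseudocount of 5.

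Between KO and Het the separation was widest. In KO, 24 of the 28 were lower, none was higher and 4 did not pass (Ifit2, Isg20, Ifi35 and Bst2), where 22.6% of all genes were called lower. The median log2 difference was -1.24, against 0.00 over all genes, and 20 fell by at least 2-fold on the same scale, as did 2.95% of all genes; with a pseudocount of 5 the median was -0.58. Without scaling the 24 calls were again made, while the share of higher calls among all called genes went from 49.1% to 36.5%. These comparisons share their WT, Het or KO libraries with each other and are not independent.

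For most of these genes the Het level did not lie midway between WT and KO on the log2 scale. Against the midpoint of the WT and KO means on the log2 scale, 23 of the 28 genes in Het lay above, 2 below (Isg20 and Ifi35) and 3 did not pass, where 21.8% of all genes were called above and 22.4% below. The median distance from the midpoint was 0.88, against 0.01 over all genes, and it was 0.41 with a pseudocount of 5. In Het, 12 genes lay at least 2-fold above the midpoint on the log2(FPKM + 1) scale, as did 2.23% of all genes. A level midway in FPKM already lies above the log2 midpoint, and Actb itself lay 1.76 above it in Het. A gene above WT in Het and below WT in KO lies above it in any case. The midpoint counts are therefore not separate from those against WT, and a gene above the midpoint need not exceed WT. The calls for Ifit2 above the midpoint (adjusted p = 0.0476) and Ifi35 below it (adjusted p = 0.0389) were lost when any of several libraries was left out, up to adjusted p = 0.152 for Ifit2 and 0.129 for Ifi35, both without Het 2. The other such libraries were WT 2, Het 3, KO 3 and KO 4 for both genes, Het 1 for Ifit2, and WT 3 and Het 4 for Ifi35.

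The most frequent pattern, shared by 12 of the 28 genes, was a rise in Het and a fall in KO, each against WT, with KO below Het. This pattern was called for 2.50% of all tested genes. Its members were Ccl5, Cxcl10, Herc6, Ifih1, Irf9, Isg15, Lgals3bp, Oasl2, Parp14, Samd9l, Trim25 and Usp18. Another 6 (Dhx58, Ifit1, Ifit3, Ifitm3, Irf7 and Stat2) rose in Het without a call between KO and WT (5.89% of all genes). A further 5 (Dtx3l, Eif2ak2, Ifi27, Parp9 and Xaf1) were lower in KO than in both other genotypes, without a call between Het and WT (7.80% of all genes). Bst2 passed only between KO and WT (2.28%).

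Read library by library, every KO value lay below every Het value for 24 of the 28 genes (27.1% of all tested genes), and below every WT value for 22 (23.5%). Every Het value lay above every WT value for 17 (20.1%) and below for 3 (19.6%). Every KO value lay above every WT value for 2, Ifit2 and Ifit3 (23.0%).

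The filter bears on these counts, since it asks for 1 FPKM in at least 3 libraries and a gene that passes it through a single genotype has to differ. Of the 28 genes, 6 passed only because of their Het libraries (Ifit1, Ifit3, Irf7, Oasl2, Usp18 and Dhx58). All 6 are among the 19 that rose in Het and among the 23 above the midpoint. They are also among the 24 lower in KO than in Het and the 20 that fell there by at least 2-fold. Dhx58, Ifit1, Ifit3 and Irf7 belong to the pattern of a rise in Het without a call between KO and WT. The filter thus bears on those counts too. Ifit1 and Ifit3 had no WT or KO library at 1 FPKM, and 9 of the 28 had no KO library at that level. The 17 genes at 1 FPKM or more in every library gave 1 higher and 14 lower in KO against WT, where 23.1% of the 12520 tested genes at that level were higher and 24.0% lower. In Het against WT they gave 9 higher and 3 lower (21.5% and 22.4% of those genes), and in KO against Het 0 higher and 13 lower (21.8% and 22.2%). Against the midpoint, 12 of the 17 lay above and 2 below in Het, with a median distance of 0.67. Among all 14950 tested genes, 21.8% were above and 22.4% below. With no filter all 38 genes were tested among 31745. Then 20 fell and 1 rose in KO against WT (11.9% of all genes lower), 22 rose and 3 fell in Het against WT (10.9% higher and 10.7% lower), and 32 were lower in KO than in Het (11.2%).

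**Figure D2:**
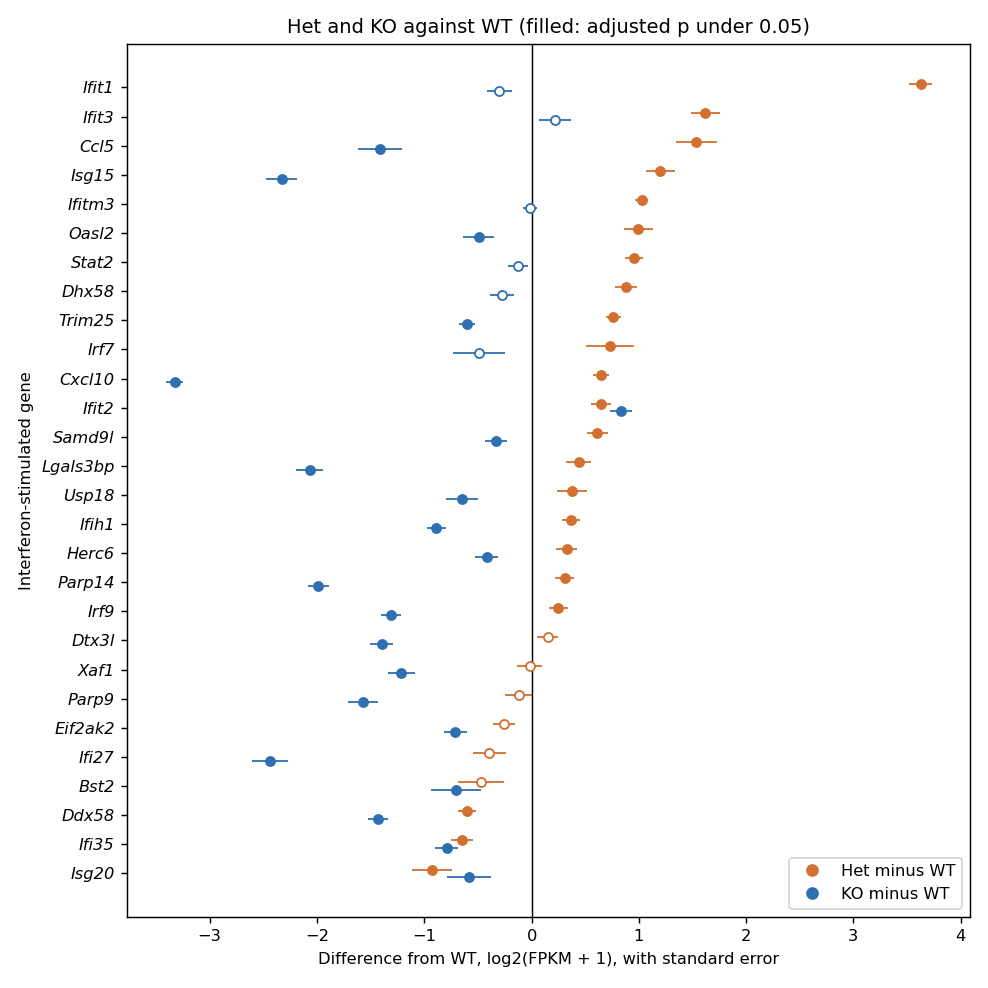
Differences from WT of the 28 tested genes (vertical axis) on the log2(FPKM + 1) scale (horizontal axis), for Het (orange) and KO (blue); bars are standard errors and filled points have an adjusted p under 0.05. Cxcl10 in KO (-3.33) and Ifit1 in Het (3.63) lie farthest from 0, and Ifit2 is the gene with both points filled on the right.

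The sensors of foreign nucleic acid did not move together. Ddx58 (RIG-I, chr4:40203777-40239825), which recognises short viral RNA, was at 17.1, 15.4, 17.4 and 13.8 FPKM in WT 1 to 4, at 10.4, 10.2, 10.8 and 9.03 in Het 1 to 4, and at 5.65, 5.04 and 5.08 in KO 1, 3 and 4. The values stepped down from WT to Het to KO and no groups overlapped. On the log2 scale it differed from WT by -0.61 in Het (SE 0.08, adjusted p = 0.000185) and -1.43 in KO (SE 0.09, adjusted p = 4e-07). This stepwise order was called for Ddx58 alone of the 28 genes and for 2.78% of all tested genes.

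Ifih1 (MDA5, chr2:62595612-62646255), the sensor of long double-stranded RNA, was at 2.85, 3.13, 3.13 and 2.45 FPKM in WT, at 3.84, 4.33, 3.93 and 3.95 in Het and at 0.964, 1.30 and 1.04 in KO. All Het values lay above and all KO values below those of WT. It rose by 0.37 on the log2 scale in Het (adjusted p = 0.00461) and fell by 0.89 in KO (adjusted p = 1.58e-05). Dhx58 (LGP2), a relative that modulates the other RNA sensors, was at 0.625, 0.708, 0.717 and 1.10 FPKM in WT, at 2.71, 2.19, 2.18 and 2.09 in Het and at 0.579, 0.466 and 0.368 in KO. Every Het library was above every other library. It rose by 0.88 in Het (adjusted p = 4.93e-05), while the difference of KO from WT was -0.28 (95% interval -0.52 to -0.03, adjusted p = 0.0601). Zbp1, a sensor of Z-form nucleic acid, was under the filter and listed at 0 in all 3 KO libraries.

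Of the transcription factors, all 3 were higher in Het than in WT, and only Irf9 passed the test between KO and WT. Irf9 (chr14:55603985-55610030), the DNA-binding partner of Stat2, was at 7.19, 8.99, 8.29 and 8.09 FPKM in WT, at 8.90, 10.4, 10.7 and 9.42 in Het and at 2.35, 2.88 and 2.84 in KO. KO stood clearly apart, while Het 1 lay below WT 2. The fall in KO was 3.03-fold (log2 difference -1.31, SE 0.09, adjusted p = 1.02e-06). The rise in Het, 0.25 on the log2 scale, passed with adjusted p = 0.0373 and was lost when WT 1, WT 3, WT 4, Het 2, Het 3 or Het 4 was left out (adjusted p up to 0.106, without Het 3).

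Stat2 (chr10:128270559-128292852), whose promoter window is shown above, was at 6.40, 6.74, 7.20 and 7.97 FPKM in WT, at 14.2, 14.6, 16.7 and 13.1 in Het and at 6.65, 6.39 and 6.07 in KO. Het was 2.07-fold above WT, and KO overlapped WT. The log2 difference was 0.95 in Het (SE 0.08, adjusted p = 6.68e-06) and -0.13 in KO, with a 95% interval of -0.33 to 0.07 (adjusted p = 0.271). Irf7, the factor that amplifies interferon production, was at 0.639, 1.07, 0.308 and 1.51 FPKM in WT, at 1.03, 2.24, 2.61 and 2.59 in Het and at 0.311, 0.200 and 0.395 in KO. The WT libraries spread widely and overlapped both other groups. Its rise in Het was 0.73 (SE 0.22, adjusted p = 0.0212) and was lost without WT 3, Het 2, Het 3 or Het 4 (adjusted p up to 0.0618, without Het 3). The difference of KO from WT was -0.49 (adjusted p = 0.119).

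The Ifit genes, which encode proteins that bind foreign RNA ends and are neighbours on chromosome 19, all rose in Het, and Ifit2 also rose in KO. Ifit1 (chr19:34640889-34650009) was at 0.506, 0.435, 0.325 and 0.296 FPKM in WT, at 16.5, 15.3, 19.2 and 13.9 in Het and at 0.263, 0.0846 and 0.0417 in KO. The mean in Het was 41.6-fold that in WT, and each WT and KO library was under 1 FPKM. This was a log2 difference of 3.63 (SE 0.11, adjusted p = 2.06e-09). KO lay below WT without overlap, but the difference of -0.30 did not pass (adjusted p = 0.0522).

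Ifit3 (chr19:34583142-34588982) was at 0.736, 0.433, 0.449 and 0.648 FPKM in WT, at 3.05, 3.79, 5.40 and 3.26 in Het and at 0.753, 0.752 and 0.960 in KO. Het stood apart and KO lay just above WT. The rise in Het was 1.62 (adjusted p = 5.47e-06), and the difference of KO from WT was 0.22 (adjusted p = 0.253). Ifit3 has a near-identical neighbour, Ifit3b, and the split of reads between them is uncertain. Ifit2 (chr19:34550549-34576534) was the only one of the 28 genes to rise in both. It ranged from 9.91 to 12.99 FPKM in WT, from 17.1 to 21.4 in Het and from 20.8 to 23.3 in KO. Its log2 difference was 0.64 in Het (adjusted p = 0.000261) and 0.84 in KO (adjusted p = 5.53e-05), a pattern called for 6.48% of all genes.

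The double-stranded RNA effectors and the nuclease Isg20 fell in KO, each by less than 2-fold on the log2(FPKM + 1) scale. Oasl2, an Oas-like protein, was at 1.24, 0.655, 1.15 and 0.832 FPKM in WT, at 2.81, 2.98, 3.33 and 2.53 in Het and at 0.701, 0.291 and 0.223 in KO. Het was above all other libraries, while KO 1 lay within the WT range. It rose by 0.996 in Het (adjusted p = 0.00014) and fell by 0.49 in KO (adjusted p = 0.0155), the latter call being lost without KO 3 (adjusted p = 0.0628) or KO 4 (0.0721).

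Eif2ak2 (PKR), the kinase that halts translation on viral RNA, had a mean of 37.5 ± 6.18 FPKM in WT (SD, n = 4), 30.9 ± 1.83 in Het (n = 4) and 22.3 ± 0.647 in KO (n = 3). It fell by 0.71 in KO (adjusted p = 0.000305), and Het did not pass against WT (-0.26, adjusted p = 0.0581). Isg20, an exonuclease, was lower in both, at 6.59 ± 1.68 FPKM in WT (n = 4), 2.996 ± 0.847 in Het (n = 4) and 3.98 ± 0.487 in KO (n = 3). Its fall of 0.92 in Het had adjusted p = 0.00225. The fall of 0.58 in KO (adjusted p = 0.0341) was lost without WT 2, WT 3, WT 4, KO 1 or KO 3 (adjusted p up to 0.107, without KO 1). Oas1a, which makes the activator of RNase L, was under the filter at 0.374 to 0.926 FPKM in WT, 0.459 to 0.771 in Het and at most 0.0802 in KO. Near-identical Oas1 paralogs make its share of reads uncertain.

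Among the antiviral effectors, Ifitm3 (chr7:141009590-141010744), a membrane protein that blocks virus entry, had the highest level of the 38 genes. It was at 82.8, 83.4, 86.6 and 80.7 FPKM in WT, at 166, 168, 191 and 160.0 in Het and at 86.8, 79.4 and 80.9 in KO. Het was 2.06-fold above WT, and KO and WT covered the same range. The log2 difference was 1.03 in Het (SE 0.06, adjusted p = 3.86e-07) and -0.02 in KO, with a 95% interval of -0.16 to 0.13 (adjusted p = 0.849). The split of reads between Ifitm3 and its relative Ifitm2 is uncertain.

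Samd9l, a restriction factor of poxviruses, ranged from 2.63 to 3.94 FPKM in WT, 5.29 to 5.55 in Het and 2.17 to 2.51 in KO. It rose by 0.61 in Het (adjusted p = 0.000487). Its fall of 0.33 in KO (adjusted p = 0.0238) was lost without WT 1, WT 3, KO 1 or KO 4 (adjusted p up to 0.0875, without KO 4). Bst2 (tetherin), which holds budding virus at the cell surface, ranged from 28.8 to 54.7 FPKM in WT, 18.3 to 33.2 in Het and 18.3 to 24.2 in KO. It fell by 0.71 in KO (adjusted p = 0.0283), a call lost without KO 1 (adjusted p = 0.1) or KO 3 (0.0625). The difference of Het from WT was -0.47 (adjusted p = 0.104).

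The Isg15 conjugation group followed the common pattern: its 4 tested members all rose in Het and fell in KO. Isg15 (chr4:156199424-156200818), a ubiquitin-like modifier, was at 4.001, 4.90, 5.15 and 5.41 FPKM in WT, at 12.8, 9.77, 14.6 and 12.98 in Het and at 0.144, 0 and 0.366 in KO. Every Het library was above every WT library and every KO library far below, with KO 3 listed at 0. Isg15 differed from WT by 1.20 in Het (SE 0.13, adjusted p = 4.06e-05) and -2.33 in KO (SE 0.15, adjusted p = 3.61e-07).

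Trim25, a ubiquitin ligase that also activates Ddx58, was at 10.1, 10.7, 9.58 and 9.17 FPKM in WT, at 16.9, 17.7, 18.3 and 16.7 in Het and at 6.53, 5.57 and 6.39 in KO. The groups were tight and did not overlap. It rose by 0.76 in Het (adjusted p = 7.24e-06) and fell by 0.60 in KO (adjusted p = 5.65e-05); its value sums 2 deposited loci, 1 of them on an alternate sequence. Herc6, a ligase for Isg15 in mice, ranged from 4.20 to 5.54 FPKM in WT, 6.30 to 7.04 in Het and 2.96 to 4.10 in KO. It rose by 0.33 in Het (adjusted p = 0.019; 0.052 without Het 2) and fell by 0.42 in KO (adjusted p = 0.00727). Usp18, which removes Isg15 from proteins and restrains the receptor, was at 0.411 to 1.01 FPKM in WT, 1.01 to 1.65 in Het and at most 0.204 in KO. It fell by 0.65 in KO (adjusted p = 0.00426). Its rise of 0.38 in Het (adjusted p = 0.0458) was lost without WT 1, WT 2, Het 2, Het 3 or any 1 of the KO libraries (adjusted p up to 0.124, without WT 2).

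The neighbouring genes Parp14, Dtx3l and Parp9 on chromosome 16, whose products act in ADP-ribosylation (Parp9 and Dtx3l as a pair), were all at least 2-fold lower in KO. Parp14 (chr16:35832859-35871514) was at 3.97, 3.30, 3.80 and 3.32 FPKM in WT, at 4.33, 4.74, 5.55 and 4.21 in Het and at 0.136, 0.161 and 0.173 in KO. WT had 23.0-fold the mean level of KO, and Het lay just above WT without overlap. Parp14 differed from WT by 0.31 in Het (adjusted p = 0.0158) and -1.99 in KO (SE 0.10, adjusted p = 5.3e-08).

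Dtx3l (chr16:35926515-35939027) was at 4.63, 4.05, 4.38 and 4.09 FPKM in WT, at 4.08, 5.10, 5.41 and 4.93 in Het and at 1.25, 0.770 and 1.02 in KO. Parp9 (chr16:35938470-35972621) was at 11.6, 9.26, 12.8 and 8.96 FPKM in WT, at 9.70, 9.72, 10.5 and 8.69 in Het and at 3.68, 2.38 and 2.70 in KO. For both genes KO lay below every other library and Het overlapped WT. The log2 difference in KO was -1.40 for Dtx3l (adjusted p = 1.5e-06) and -1.57 for Parp9 (adjusted p = 5.53e-06). In Het it was 0.15 (adjusted p = 0.243) and -0.12 (adjusted p = 0.499). The loci of Dtx3l and Parp9 overlap, and the strand setting of the counting is not given in the sources used here, so their values may share reads.

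The secreted products Cxcl10, Ccl5 and Lgals3bp each rose in Het and fell in KO. Cxcl10 (chr5:92346638-92348889), a chemokine that attracts activated T cells, was at 30.7, 33.7, 34.5 and 38.8 FPKM in WT, at 52.7, 55.2, 57.7 and 51.6 in Het and at 2.67, 2.64 and 2.26 in KO. The 3 groups were far apart, with WT at 13.7-fold and Het at 21.5-fold the mean of KO. The log2 difference was 0.65 in Het (SE 0.08, adjusted p = 5.71e-05) and -3.33 in KO (SE 0.08, adjusted p = 2.74e-10).

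Ccl5 (chr11:83525778-83530518), a chemokine for T cells and monocytes, was at 8.05, 5.57, 8.63 and 7.81 FPKM in WT, at 18.8, 19.0, 28.0 and 30.1 in Het and at 2.90, 1.56 and 2.15 in KO. Het 3 and Het 4 stood above Het 1 and Het 2, and no groups overlapped. It rose by 1.54 in Het (SE 0.19, adjusted p = 8.32e-05) and fell by 1.42 in KO (SE 0.21, adjusted p = 0.000206). Lgals3bp, a secreted glycoprotein, was at 4.41, 4.78, 3.95 and 5.45 FPKM in WT, at 5.90, 6.60, 8.26 and 5.97 in Het and at 0.244, 0.314 and 0.465 in KO. WT had 13.6-fold the mean of KO. It rose by 0.44 in Het (adjusted p = 0.00997) and fell by 2.07 in KO (adjusted p = 2.88e-07).

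**Figure D3:**
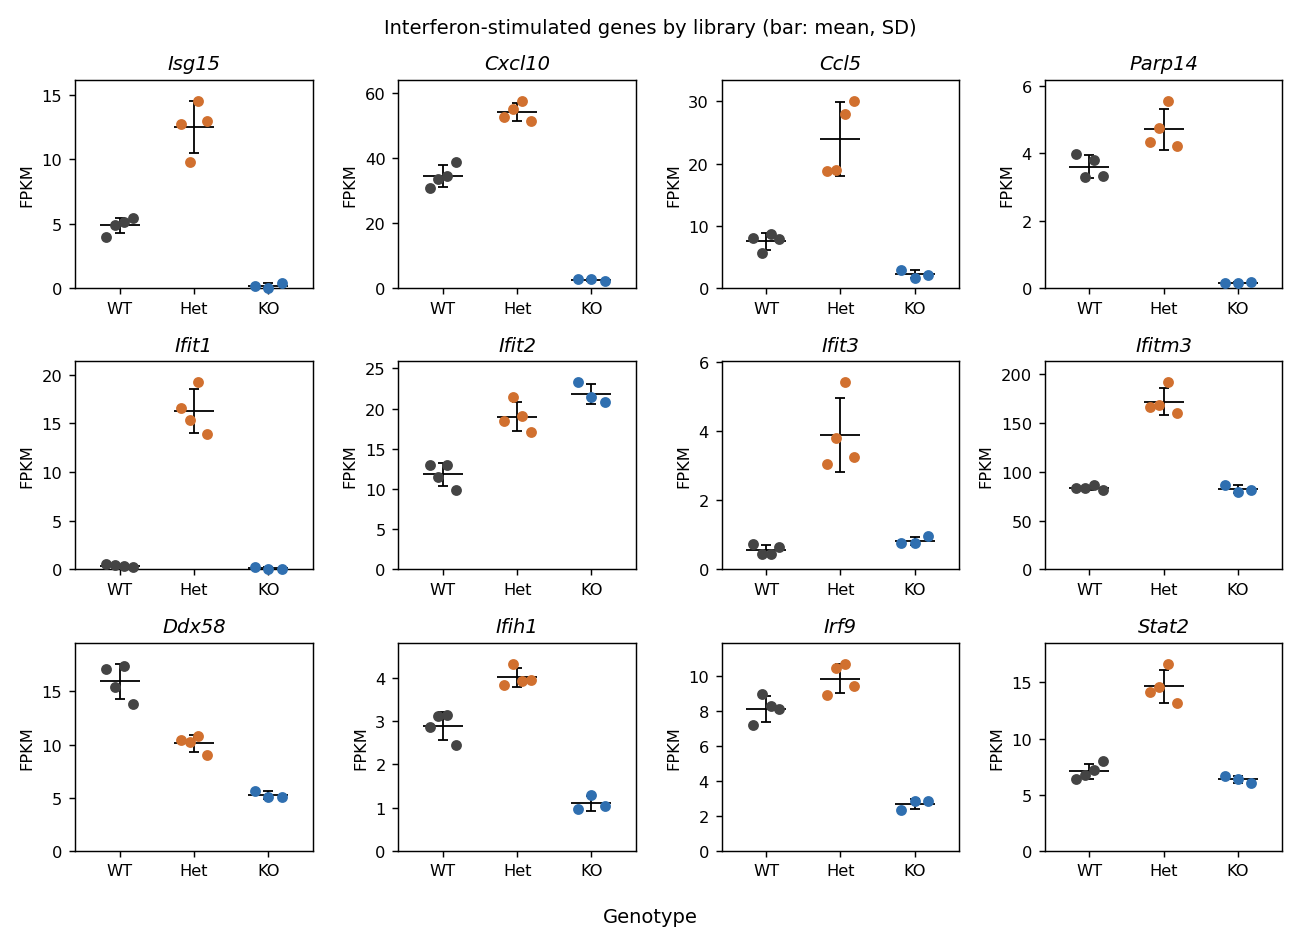
Level of 12 interferon-stimulated genes in FPKM (vertical axis, linear from 0) by genotype (horizontal axis); each point is a library and bars give mean and SD. Isg15, Cxcl10, Ccl5 and Parp14 are highest in Het and lowest in KO, Ifit1, Ifit3, Ifitm3 and Stat2 stand out in Het, Ddx58 steps down, and Ifit2 is higher in both Het and KO than in WT.

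None of the remaining tested genes rose in Het. Ifi27 (chr12:103434189-103440245), a small membrane protein, was at 11.7, 16.1, 14.6 and 16.4 FPKM in WT, at 12.0, 9.68, 11.9 and 9.99 in Het and at 2.80, 1.499 and 1.49 in KO. KO stood apart from both, and Het overlapped WT only at WT 1. It fell by 2.44 in KO (SE 0.17, adjusted p = 6.79e-07), and the Het difference of -0.39 did not pass (adjusted p = 0.0582).

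Xaf1, a pro-apoptotic partner of Xiap, was at 3.54, 4.66, 4.15 and 4.60 FPKM in WT, at 3.82, 3.75, 5.53 and 3.71 in Het and at 1.17, 1.32 and 1.25 in KO. Its fall in KO was 1.22 (adjusted p = 1.77e-05), and the difference of Het from WT was -0.02 (95% interval -0.28 to 0.24, adjusted p = 0.918). Ifi35 ranged from 24.0 to 29.7 FPKM in WT, 15.0 to 19.6 in Het and 13.4 to 16.5 in KO. It fell in both, by 0.65 in Het (adjusted p = 0.000392) and by 0.79 in KO (adjusted p = 0.000132), and together with Isg20 formed a pattern called for 6.85% of all genes.

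The 10 genes under the filter (Ifi44, Oas1a, Oasl1, Mx1, Mx2, Rsad2, Rtp4, Cmpk2, Zbp1 and Trim30a) did not exceed 1.11 FPKM in any library. Even so, 8 of them were lower in every KO library than in every Het library, as were 5.22% of the 16757 genes under the filter, and 6 were higher in every Het than in every WT library (4.36%). In KO against WT, 2 were lower without overlap (4.89%). Rsad2 (viperin), an antiviral enzyme whose window is shown above, was at 0.586 to 0.937 FPKM in Het, at most 0.197 in WT and at most 0.0112 in KO. Its neighbour Cmpk2, a nucleotide kinase, was at 0.650 to 0.989 in Het, 0.178 to 0.401 in WT and 0.0680 to 0.214 in KO. The dynamin-like GTPase Mx2 was at 0.401 to 0.613 FPKM in Het and at most 0.357 in WT and 0.108 in KO, while Mx1 stayed at or under 0.145 throughout. Oasl1, Trim30a and Zbp1 were the 3 genes listed at 0 in all KO libraries. Values this low rest on few reads: the half-width of the deposited confidence interval, as a share of the value, had a median over libraries of 104% for Rsad2 and 82.1% for Cmpk2, against 6.90% for Eif2ak2.

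Within the Het group, Het 3 had 24 of the 28 genes above the Het mean, with a median deviation of 0.13 on the log2 scale, and Het 4 had 6, with a median of -0.09. The median deviations of the other 9 libraries lay within 0.06 of their group means. Grouped by promoter, the 6 tested genes with the repeat of GAAA had a median log2 difference of -2.46 between KO and Het, the 16 without it -1.12, and the 6 with no entry in the promoter table -1.75. In the same order, 5, 13 and 6 of them were lower in KO than in Het. Between KO and WT the medians were -0.50, -0.66 and -1.49, with 3, 13 and 5 lower in KO, so that the genes with the motif were not the lowest there. Between Het and WT they were 1.08, 0.35 and 0.34, with 5, 10 and 4 higher in Het. Among all tested genes, 22.6% were lower in KO than in Het. Against WT, 23.7% were lower in KO and 22.2% higher in Het. Of the genes that passed the filter only because of their Het libraries, Ifit1 and Ifit3 had the motif. Irf7 and Oasl2 lacked it, and Dhx58 and Usp18 had no entry. The filter thus favours a higher Het level for these genes, which bears on the medians that involve Het. The counts and medians by promoter were not tested.

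The rest of the pathway was read from lists of its parts. Of 20 type I and type III interferon genes, 18 were listed at 0 in every library, among them Ifnb1, the main interferon of fibroblasts. The others were Ifne, at most 0.346 FPKM, and Ifnz, at 0.313 to 1.496 FPKM over the libraries with overlap between all genotypes. None reached the filter.

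All 10 receptor, kinase and STAT genes were tested. Against WT, 7 rose and 3 fell in Het, and 1 rose and 3 fell in KO; between KO and Het, 2 were higher and 5 lower in KO. Among all tested genes 22.2% rose and 21.6% fell in Het, 23.5% rose and 23.7% fell in KO, and 21.8% were higher and 22.6% lower in KO than in Het. Stat3 rose by 0.89 in Het (adjusted p = 2.79e-06), Tyk2 by 0.75 (adjusted p = 0.00252) and Ifngr2, a receptor chain for interferon gamma, by 0.45 (adjusted p = 1.61e-05). The 3 that fell in Het were Jak2, Jak1 and Ifngr1. Their log2 differences from WT were -0.53 (adjusted p = 0.000383), -0.28 (adjusted p = 0.0158) and -0.19 (adjusted p = 0.0272). Ifnar1 had means of 17.9 ± 0.336 FPKM in WT (n = 4), 21.8 ± 1.37 in Het (n = 4) and 19.9 ± 0.205 in KO (n = 3), and its rise of 0.27 in Het had adjusted p = 0.00188. Ifnar2 rose by 0.31 in Het (adjusted p = 0.00633). Neither receptor chain passed between KO and WT, with differences of 0.15 for Ifnar1 (adjusted p = 0.0539) and 0.13 for Ifnar2 (adjusted p = 0.201).

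Of 19 genes for sensing adaptors, kinases and interferon regulatory factors, 16 were tested; 2 rose and 7 fell in KO, and 4 rose and 7 fell in Het, against the same shares of all genes (23.5%, 23.7%, 22.2% and 21.6%). Tmem173 (STING), the adaptor of DNA sensing, was at 2.29, 1.72, 2.68 and 2.53 FPKM in WT, at 11.7, 12.9, 14.3 and 12.5 in Het and at 0.566, 0.736 and 0.308 in KO. It had the pattern of Isg15, with a rise of 2.07 in Het (adjusted p = 2.8e-07) and a fall of 1.11 in KO (adjusted p = 3.89e-05). Mb21d1 (cGAS), the DNA sensor that signals to it, fell by 0.80 in KO (adjusted p = 6.34e-05) and by 0.28 in Het (adjusted p = 0.0261). Irf1, a factor that drives many of the same targets, stepped down as Ddx58 did, from a mean of 72.5 ± 2.60 FPKM in WT (n = 4) to 44.4 ± 1.62 in Het (n = 4) and 25.9 ± 1.79 in KO (n = 3), with falls of 0.70 in Het (adjusted p = 2.8e-06) and 1.45 in KO (adjusted p = 1.3e-08). Irf5 fell by 0.87 in Het (adjusted p = 0.000392). Irf3, the factor activated by STING and the RNA sensors, rose by 0.53 in Het (adjusted p = 0.0458) and did not pass in KO (0.22, adjusted p = 0.422), with WT 4 at 10.3 FPKM and the other WT libraries at 4.52 to 6.50.

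**Figure D4:**
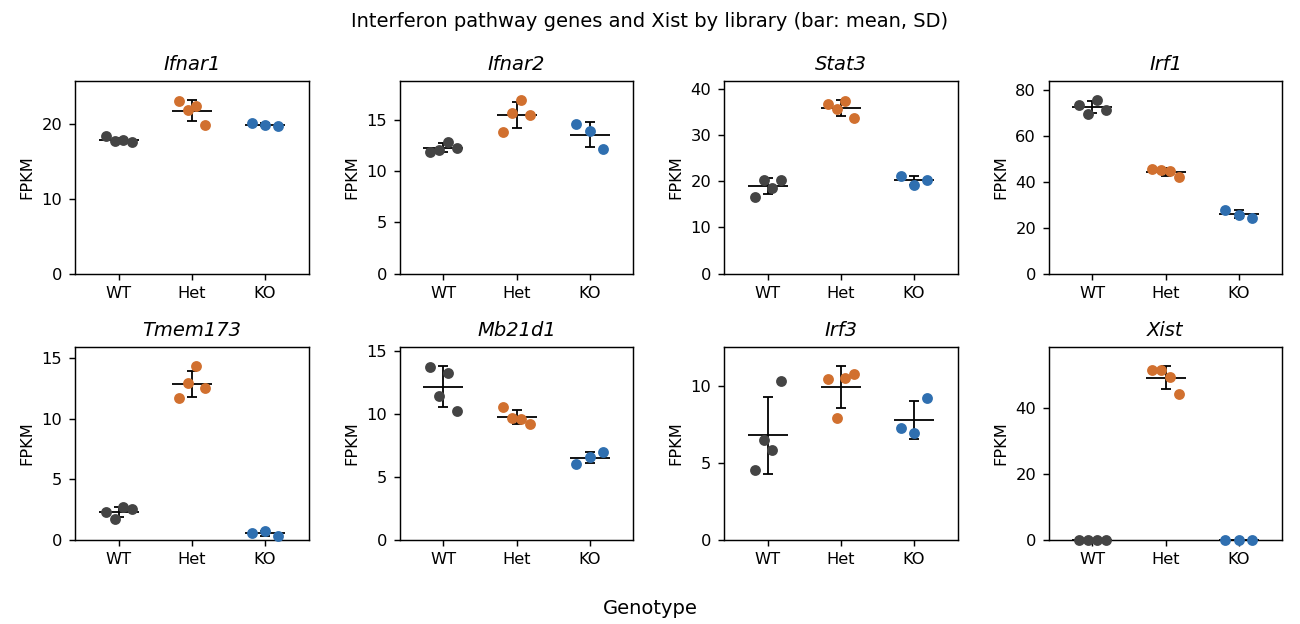
Level in FPKM (vertical axis, linear from 0) of receptors, factors and DNA-sensing genes of the interferon pathway and of Xist by genotype (horizontal axis); points are libraries, bars mean and SD. Stat3 stands out in Het, Tmem173 is highest in Het and lowest in KO, and Irf1 steps down. Mb21d1 is lowest in KO, with Het overlapping WT. Ifnar1 and Ifnar2 differ little, and Xist is at 44.1 to 51.5 FPKM in Het and under 0.0586 elsewhere.

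Of 14 tested negative regulators, 5 rose and 4 fell in KO, where 23.5% and 23.7% of all genes did, and 3 rose and 2 fell in Het, where 22.2% and 21.6% did. The Het counts lie near or under those shares, and nothing is read from them. Irf2bp2, a corepressor, rose by 1.17 in KO (adjusted p = 1e-06), Tnfaip3 (A20) by 0.75 (adjusted p = 1.29e-05) and Ptpn6 (SHP-1) by 0.72 (adjusted p = 0.00164), while the deubiquitinase Cyld fell by 0.93 (adjusted p = 1.77e-05). Of 12 enzymes that keep the cell's own nucleic acid from being sensed, 2 rose and 6 fell in KO, and 2 rose and 1 fell in Het, against the same shares of all genes. Samhd1, which hydrolyses dNTPs, fell by 1.15 in KO (adjusted p = 8.11e-07), and the RNase H2 subunits Rnaseh2b and Rnaseh2a fell by 0.96 (adjusted p = 6.49e-06) and 0.65 (adjusted p = 3.39e-05). Dnase2a, the lysosomal DNase, rose by 0.96 (adjusted p = 8.1e-06).

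Markers of other cell types and of sex were read beside these results. Of 19 macrophage and blood cell markers, 18 were in the tables, 2 reached the filter (Cd14 and Cd68) and 8 were listed at 0 in every library, among them Ptprc, Emr1, Tyrobp and Cd3e. Their summed level was 5.19 to 7.12 FPKM in WT, 7.79 to 10.5 in Het and 4.92 to 9.20 in KO. Cd14 was at 3.24 ± 0.586 FPKM in WT (n = 4), 6.36 ± 0.579 in Het (n = 4) and 3.22 ± 0.872 in KO (n = 3), and rose in Het (log2 difference 0.80, adjusted p = 0.000762). Cd68 was at 1.83 ± 0.511 FPKM in WT (n = 4), 1.55 ± 0.417 in Het (n = 4) and 2.86 ± 1.40 in KO (n = 3), and passed neither in Het (-0.15, adjusted p = 0.594) nor in KO (0.41, adjusted p = 0.163). None of 10 endothelial markers reached 1 FPKM, and their sum did not exceed 0.811 FPKM. Of 9 epithelial markers 2 were tested, and Krt18 had the order of the interferon-stimulated genes, at 1.69 ± 0.196 FPKM in WT (n = 4), 6.55 ± 1.66 in Het (n = 4) and 0.215 ± 0.0708 in KO (n = 3). Krt14, the other, was at 2.57 ± 1.76 FPKM in WT (n = 4), 0.314 ± 0.155 in Het (n = 4) and 0.0350 ± 0.0606 in KO (n = 3). It fell in both, by 1.32 in Het (adjusted p = 0.00306) and by 1.66 in KO (adjusted p = 0.00103). The summed epithelial level was 3.04 to 7.54 FPKM in WT, 5.51 to 9.64 in Het and 0.898 to 1.10 in KO. Of the 9 tested fibroblast markers 8 were higher and 0 lower in KO than in WT, where 23.5% and 23.7% of all genes were. In Het 7 were higher and 1 lower than in WT, where 22.2% and 21.6% of all genes were. Between KO and Het they did not move together. In KO 4 were higher and 2 lower than in Het, the 2 by at least 2-fold on the log2(FPKM + 1) scale, where 21.8% and 22.6% of all genes were higher and lower. The summed level of the 10 listed markers was 2119 to 2550 FPKM in WT, 2821 to 3151 in Het and 4210 to 4755 in KO. Col1a2 rose by 4.65 in Het (adjusted p = 7.42e-09) and by 0.70 in KO (adjusted p = 0.00677), and Fn1 by 0.52 in Het (adjusted p = 6.51e-05) and by 1.87 in KO (adjusted p = 5.73e-09). Xist, the RNA of the inactive X chromosome, was at 44.1 to 51.5 FPKM in the 4 Het libraries and at 0.0344 to 0.0585 in the other 7. The Y-linked genes Ddx3y, Uty, Eif2s3y and Kdm5d did not exceed 0.269 FPKM in any library. The part of the Cd14, Krt18, Krt14 and fibroblast marker differences in the results above was not tested, and what separates the Het cells by Xist cannot be told apart from their Actb genotype.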

How the data were processed

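Each of the 11 libraries had a deposited table of gene FPKM values with confidence limits, which the authors made with TopHat2 2.1.0, Cufflinks 2.2.1 and Cuffdiff on GRCm38.p4, per the submitters' processing notes. Libraries came from a stranded mRNA kit, per the labels' protocols; the strand setting of the counting is not given in the sources used here. A further KO library, which the submitters report as failing quality control, was not analysed here. The tables hold no counts, so read depth is known only relative to WT 1.

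FPKM were summed per symbol and divided by a median-of-ratios factor over 12503 genes. Genes that reached 1 scaled FPKM in 3 or more libraries were tested on log2(FPKM + 1) with limma 3.58.1 in R 4.3.3 (empirical Bayes with a mean-variance trend, all 11 libraries, Benjamini-Hochberg adjustment, threshold 0.05, tested on simulated data). A fold change on that scale understates changes of low genes. Other folds are ratios of mean FPKM. Those over a group under 1 FPKM, as for Ifit1, Parp14 and Lgals3bp, are imprecise. For these genes the half-width of the deposited confidence interval reached 150%, 102% and 108% of the value in a library. Intervals are 95% confidence intervals from limma, unadjusted.

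The members and lists were chosen with earlier results of these data known. Per-library values are given for members called in a pairwise comparison with a log2 difference of at least 1 and a group mean of at least 2 FPKM, and for Ddx58, Ifih1, Stat2, Irf9 and Irf7; from other lists, up to 4 called genes with the largest difference in any pairwise comparison, and Irf1, Irf3, Ifnar1, Ifnar2, Ifnb1, Actb and 5 sex-linked genes; some results chosen by this rule are not reported here. Jak1, Jak2, Ifngr1, Ifi205 and Trim14 are given in addition to this rule, as genes that fell in Het. Of the fibroblast markers only the genes that bear on the label or have the widest differences are given. Promoters are RefSeq's, matched by symbol. The alternatives were pseudocounts of 0.1 and 5, no filter, no scaling, upper quartile scaling, primary chromosome loci only, no trend, a replicate block, a fit of only the groups compared, and leaving out each library.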

Additional observations from a re-analysis of the deposited data

Results flagged for a closer look

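The groups of 4 libraries examined were those of WT and Het, for any of the 38 genes, with at least 1 library at 1 FPKM. In 3 of these 56 groups a library stood apart by Dixon's criterion for the gap to the nearest value over the range. By chance about 5% of groups would. Dhx58 was at 2.71 FPKM in Het 1, with the other Het libraries at 2.09 to 2.19. Bst2 was at 54.7 FPKM in WT 4, with the other WT libraries at 28.8 to 32.0; without WT 4, its log2 difference between KO and WT was -0.51 (adjusted p = 0.0397) in place of -0.71. Xaf1 was at 5.53 FPKM in Het 3, with the other Het libraries at 3.71 to 3.82.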

How the results depend on the processing

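Alternatives were run for the counts, the medians and the called differences of single genes. Among these no direction changed under any alternative run, and none of the 24 calls between KO and Het was lost. With no filter the KO calls against WT of Isg20 (adjusted p = 0.0772), Bst2 (0.0666) and Samd9l (0.0506) were lost. So were the Het calls of Irf7 (0.0515), Irf9 (0.063) and Usp18 (0.0824), and the midpoint calls of Ifit2 (0.0862) and Ifi35 (0.0751). Usp18 in Het was also lost with a pseudocount of 0.1 (0.149). In a fit of only the groups compared, Usp18 in Het (0.0662) and Samd9l in KO (0.0703) were lost. The median log2 difference depended on the pseudocount, which sets the weight of low genes. With 0.1 it was -1.18 for KO against WT, 0.59 for Het against WT, -1.81 for KO against Het and 1.12 for Het against the midpoint; with 5 it was -0.49, 0.24, -0.58 and 0.41. With no filter it was -0.59 for KO against WT, -1.04 for KO against Het and 0.74 against the midpoint. For KO against WT it was -0.81 without scaling and -1.05 in a fit of only those groups, where 22 members passed the filter. The members below the midpoint numbered 1 with no filter and without scaling. Leaving out each library gave 18 to 22 lower members for KO against WT, 15 to 19 higher and 3 to 4 lower for Het against WT, 24 lower for KO against Het, and 22 to 23 above and 1 to 2 below the midpoint. The median for KO against Het then ran from -1.33 to -1.22.

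Same-numbered libraries did not deviate together in every pair (correlations -0.10 to 0.35; 6 of 11 libraries correlated best with their own number), so the numbers were not taken to pair them. A fit with a replicate block gave 21 lower and 1 higher for KO against WT, 18 higher and 4 lower for Het against WT, 24 lower for KO against Het, and 23 above and 1 below the midpoint. Under it the KO call of Isg20 had adjusted p = 0.0736 and the Het call of Usp18 0.0839. The deposited intervals of Usp18 and Irf7, both near 1 FPKM, had a median half-width of 60.02% and 63.5% of the value, which limits what these libraries can show for them.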

Other observations

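Of 78 further interferon-stimulated genes, 75 were in the tables and 53 were tested. In KO against WT, 12 rose and 28 fell, in Het against WT 17 rose and 13 fell, and in KO against Het 7 were higher and 28 lower. Among all tested genes the shares were 23.5% and 23.7%, 22.2% and 21.6%, and 21.8% and 22.6%, in the same order; the 12 that rose in KO and the 13 that fell in Het lie near the shares of all genes and are not a result about these genes. The median log2 differences of the 53 were -0.29 for KO against WT, 0.05 for Het against WT and -0.29 for KO against Het. For the 28 tested members they were -0.71, 0.41 and -1.24, so the wider list showed smaller differences and little rise in Het. Casp4, the caspase that senses cytosolic lipopolysaccharide, rose by 1.48 in Het (adjusted p = 1.49e-05) and fell by 1.10 in KO (adjusted p = 0.000176). Ifitm1, a relative of Ifitm3, was at 8.37 ± 1.95 FPKM in WT (n = 4), 28.8 ± 3.94 in Het (n = 4) and 4.19 ± 0.644 in KO (n = 3). It rose by 1.68 in Het (adjusted p = 8.58e-06) and fell by 0.83 in KO (adjusted p = 0.0017). Apol9a fell by 2.104 in KO (adjusted p = 2.24e-07) and by 0.33 in Het (adjusted p = 0.0361); its paralog Apol9b makes the split of reads uncertain. Ly6e, a surface protein that restricts coronavirus entry, rose in both, by 1.87 in Het (adjusted p = 1.67e-07) and by 0.92 in KO (adjusted p = 4.05e-05), as Ifit2 did. Ifi205 and Trim14 fell in both. Their log2 differences from WT were -1.25 (adjusted p = 6.73e-07) and -0.86 (adjusted p = 0.000621) in Het. In KO they were -1.34 (adjusted p = 4.76e-07) and -1.26 (adjusted p = 5.72e-05).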
